A study of Mus musculus with 6 samples.

Results

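The 8 genes described here encode the SREBP factors Srebf1 and Srebf2, the escort Scap, the endoplasmic reticulum anchors Insig1 and Insig2, the sterol carrier Stard4, the ubiquitin ligase Mylip and the endocytic receptor Lrp1. They were chosen by name for their roles in sterol sensing and LDL receptor control, with earlier results of these data known. They are 8 of 23284 genes counted. Their liver mRNA was compared between 3 FXR-WT and 3 Y67F-FXR mice. All 6 were male FXR-floxed mice injected at 8 weeks of age with AAV8 carrying Cre, together with AAV8 expressing either wild-type FXR (FXR-WT) or the Y67F mutant (Y67F-FXR), each driven by the TBG promoter. The TBG promoter is active in hepatocytes, so Cre and transgene were directed to those cells. FXR in the other liver cells was not measured here. At 4 weeks after injection both groups were fed chow with 0.5% cholic acid, a bile acid that activates FXR, for 6 h. FXR is the nuclear receptor for bile acids, and the Y67F change replaces a tyrosine that can be phosphorylated with phenylalanine.

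SREBPs are made as membrane proteins of the endoplasmic reticulum. When sterols are low, SCAP carries them to the Golgi, where proteases release the part that enters the nucleus and turns on genes of cholesterol and fatty acid synthesis. When sterols are high, INSIG proteins hold SCAP and SREBP back, and Insig1 is itself an SREBP target. Srebf2 acts mainly on cholesterol synthesis, and the Srebf1 form that predominates in liver acts mainly on fatty acid synthesis. Mylip, also called Idol, marks LDL receptors for degradation, and Lrp1 takes up remnant lipoproteins in hepatocytes.

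The 250 bases before start sites of both INSIG genes and both SREBP genes are printed to show the sterol and nuclear receptor motifs near the start. They come from RefSeq on build GRCm38.p6, which is not the mm9 build of the counts, and run 5′ to 3′ on the gene's strand. RefSeq windows were used for 7 of the 8 members. Of the 3 starts listed for Srebf1 only the one with the LXR half-site matches is printed, and of the 3 listed for Insig2 the first and second, a choice made with the matches known. Capitals mark matches, on either strand, to the SRE letters TCACNCCA, the E-box CACGTG, the CCAAT box, the nuclear receptor half-site AGGTCA and GGTTACT, an LXR half-site whose letters are those known from the Srebf1 promoter.
Insig1, chr5:28071162-28071411, + strand: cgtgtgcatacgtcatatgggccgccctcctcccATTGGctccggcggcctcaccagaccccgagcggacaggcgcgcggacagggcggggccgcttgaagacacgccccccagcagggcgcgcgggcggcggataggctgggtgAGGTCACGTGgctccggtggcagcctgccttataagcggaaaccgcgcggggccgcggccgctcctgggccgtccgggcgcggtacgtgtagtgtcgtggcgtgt
Insig2 start 1, chr1:121332590-121332839, - strand: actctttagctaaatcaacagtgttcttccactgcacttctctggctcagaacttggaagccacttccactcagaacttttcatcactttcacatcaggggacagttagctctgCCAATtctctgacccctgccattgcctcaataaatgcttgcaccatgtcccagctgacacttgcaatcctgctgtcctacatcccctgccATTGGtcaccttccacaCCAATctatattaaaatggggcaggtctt
Insig2 start 2, chr1:121328025-121328274, - strand: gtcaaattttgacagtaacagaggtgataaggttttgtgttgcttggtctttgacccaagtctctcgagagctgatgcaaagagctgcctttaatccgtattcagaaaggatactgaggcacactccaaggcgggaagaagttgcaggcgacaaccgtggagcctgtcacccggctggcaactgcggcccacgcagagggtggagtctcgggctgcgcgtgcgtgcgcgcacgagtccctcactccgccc
Srebf1 start 3, chr11:60210472-60210721, - strand: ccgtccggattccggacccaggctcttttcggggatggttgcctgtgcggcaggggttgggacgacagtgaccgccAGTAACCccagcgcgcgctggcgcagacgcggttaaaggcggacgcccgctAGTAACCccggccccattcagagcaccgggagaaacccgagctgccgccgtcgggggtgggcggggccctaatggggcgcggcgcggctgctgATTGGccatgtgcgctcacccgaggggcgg
Srebf2, chr15:82147019-82147268, + strand: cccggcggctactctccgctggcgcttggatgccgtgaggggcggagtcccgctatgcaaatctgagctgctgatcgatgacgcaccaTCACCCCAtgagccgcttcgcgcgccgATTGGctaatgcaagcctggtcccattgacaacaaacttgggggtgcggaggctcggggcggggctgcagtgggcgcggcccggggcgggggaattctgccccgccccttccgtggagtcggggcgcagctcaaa

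The Srebf2 window held the SRE match TCACCCCA 162 bases before the start, and 3.67% of all 32851 windows of 250 bases held such a match. The start 3 window of Srebf1 held GGTTACT on the reverse strand (AGTAACC) at 2 places, 174 and 123 bases. A match there was given by the choice of letters and is no finding, and 1.88% of all windows held these letters. Starts 1 and 2 of Srebf1 held none, and of the other motifs start 1 held a CCAAT match and start 2 held no match. The Insig1 window held CACGTG, at 101 bases, overlapping AGGTCA at 105 bases, and the shares of all windows were 6.02% and 14%. Start 1 of Insig2 held 3 CCAAT matches, at 136, 46 and 29 bases, and starts 2 and 3 held none of the 5 motifs. CCAAT was in 33.8% of windows. The Lrp1 window held no match, the Mylip window held 3 CCAAT matches, and of the pair of Scap starts the second held CACGTG at 40 bases. Stard4 was left out of the windows used, so its start was not searched for these motifs. These are matches of letters, and the counts, which were summed per gene, do not separate starts or isoforms.

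Library totals were 19551113 to 22053320 reads. Of 12453 genes tested with edgeR's quasi-likelihood test, 53 were lower and 68 were higher in Y67F-FXR after Benjamini-Hochberg adjustment (p under 0.05, fold over 1.5), which is 0.972% of those tested and is written as called below. Scaled by library totals, the counts were 68 lower and 52 higher, so the balance of directions turned. Leaving out 1 library gave 7 to 33 lower and 2 to 35 higher genes, both fewest without FXR-WT replicate 3. Nr1h4, which encodes FXR, was at 186 ± 30.2 and 175 ± 9.84 CPM in FXR-WT and Y67F-FXR (SD, n = 3 each; CPM is the read count scaled to a common library total). Because the row can hold reads of both the mouse gene and the transgene, it does not check the labels. Hepatocyte markers summed to 112548 to 122679 CPM in FXR-WT and 112896 to 131962 CPM in Y67F-FXR, with all 10 detected. Fewer cells of a type and less RNA per cell cannot be told apart in these bulk livers. The p-values measure the spread between these 3 livers per group.

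Of the 8 members, 1 was called, against 0.972% of all genes. It was Insig2, which was higher in Y67F-FXR. Groups did not overlap for 4 members, of which Scap and Insig2 were higher and Srebf1 and Insig1 lower, against 20.6% of all genes in either direction. At an unadjusted p under 0.05, 2 members were higher (Scap and Insig2) and 1 was lower (Insig1), against 6.75% and 6.67% of all genes. The levels of all members in each liver are plotted by group.

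**Figure D1:**
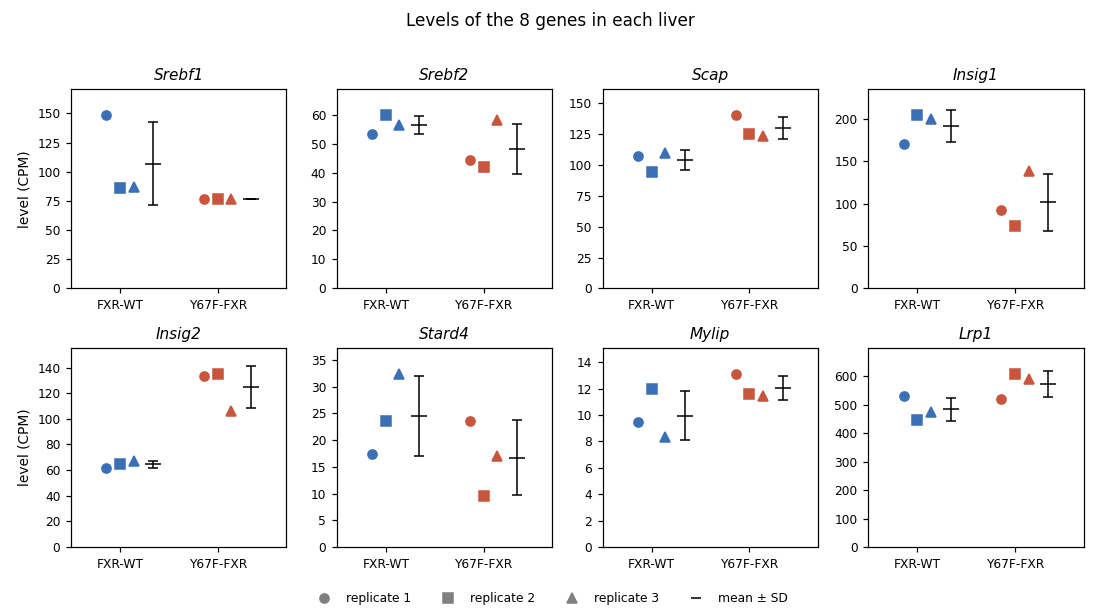
CPM of each of the 8 genes (y axis, from 0) in the 3 FXR-WT (blue) and 3 Y67F-FXR (red) livers, with the marker shape giving the replicate and the bar the mean ± SD. The 3 Y67F-FXR livers lie above all FXR-WT livers for Insig2 and Scap and below them for Insig1 and Srebf1, the last by a narrow margin for FXR-WT replicates 2 and 3.

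Insig2, an anchor that retains SCAP and SREBP in the endoplasmic reticulum, was at 61.5, 64.9 and 67.2 CPM in the FXR-WT livers and 134, 135 and 106 CPM in the Y67F-FXR livers. Every Y67F-FXR liver was above every FXR-WT liver, with means of 64.5 ± 2.87 and 125 ± 16.5 CPM (SD, n = 3 each). The difference was 1.94-fold, 0.95 on the log2 scale (SE 0.134, edgeR Benjamini-Hochberg adjusted p = 0.0243). Leaving out any 1 library gave 0.88 to 1.07, with adjusted p from 0.0537 to 0.105 by the same test, so no fit with 1 library fewer made the call. The gene lies at chr1:123200930-123229157 on the minus strand of mm9.

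Insig1, the anchor that SREBPs themselves induce, was lower in every Y67F-FXR liver than in any FXR-WT liver. It was at 170, 204 and 200 CPM in FXR-WT and 92.2, 73.9 and 139 CPM in Y67F-FXR, with means of 192 ± 18.5 and 102 ± 33.3 CPM (SD, n = 3 each). Y67F-FXR replicate 3 was closest to the FXR-WT range, and no liver crossed between the groups. The log2 difference of -0.92 (SE 0.225) had an adjusted p of 0.123 (edgeR, Benjamini-Hochberg), and so did not pass. DESeq2 and edgeR's likelihood ratio test called it, with adjusted p of 0.0069 and 0.0099 and the same direction. The gene lies at chr5:28397952-28405202 on the plus strand of mm9.

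Within each library the log2 ratio of Insig1 to Insig2 (on CPM per kilobase) was 1.401, 1.584 and 1.504 in FXR-WT and -0.61, -0.94 and 0.32 in Y67F-FXR. Groups did not overlap, and the mean ratio was 3.74-fold lower in Y67F-FXR, with an exact two-sided permutation p of 0.1. That is the smallest p that 3 against 3 allows, and it became 0.167 over the 5 ratios tested. Divided by gene length, summed Insig1 and Insig2 levels were 88.7, 103 and 102 CPM per kilobase in FXR-WT and 87.8, 81.4 and 94.3 CPM per kilobase in Y67F-FXR, and the groups overlapped. Insig2 made up 27.5, 25.0 and 26.0% of that sum in FXR-WT and 60.3, 65.7 and 44.5% in Y67F-FXR. This sum and share were chosen after the values were seen and carry no test.

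**Figure D2:**
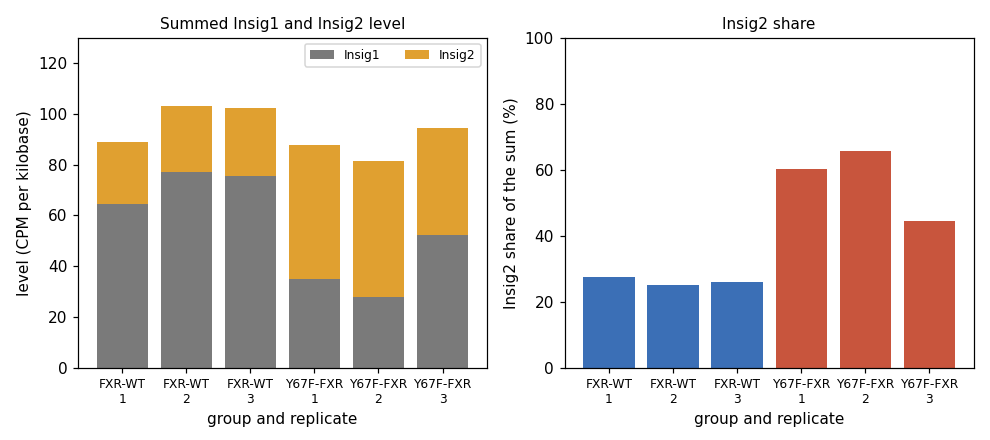
Left, CPM per kilobase of Insig1 (grey) and Insig2 (orange) stacked for each liver. Right, the Insig2 share of their sum in percent for FXR-WT (blue) and Y67F-FXR (red), which was 25.0 to 27.5% in FXR-WT and 44.5 to 65.7% in Y67F-FXR, while the summed levels of the groups overlapped.

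Scap, the sterol-sensing escort (mm9 chr9:110235797-110287450, plus strand), was at 108, 94.6 and 110 CPM in FXR-WT and 140, 125 and 124 CPM in Y67F-FXR. Groups did not overlap, and the log2 difference was 0.32 (SE 0.120), with an unadjusted p of 0.0291 and an adjusted p of 0.297 (edgeR, Benjamini-Hochberg). The log2 ratio of Insig1 to Scap differed by -1.28 (Y67F-FXR minus FXR-WT), with no overlap of the groups and an exact permutation p of 0.1.

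Srebf1, from which the fatty acid regulators SREBP-1a and SREBP-1c are made (mm9 chr11:60012591-60034106, minus strand), was at 148, 86.0 and 86.7 CPM in FXR-WT and 76.9, 76.6 and 76.3 CPM in Y67F-FXR. The Y67F-FXR livers were nearly alike, and FXR-WT replicate 1 stood above the other livers of its group. The log2 difference was -0.48 (SE 0.216, edgeR Benjamini-Hochberg adjusted p = 0.389) and became -0.18 once FXR-WT replicate 1 was left out. Srebf1 shared 107 exon bases, 2.49% of its length, with Rai1, and reads on both genes were left out of the counts.

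Srebf2, the regulator of cholesterol synthesis genes (mm9 chr15:81977699-82035390, plus strand), was at 53.5, 59.8 and 56.3 CPM in FXR-WT and 44.5, 42.0 and 58.2 CPM in Y67F-FXR. Groups overlapped through Y67F-FXR replicate 3, and the log2 difference was -0.23 (SE 0.150, edgeR Benjamini-Hochberg adjusted p = 0.595). The difference was -0.38 without Y67F-FXR replicate 3 and -0.15 without Y67F-FXR replicate 2. The ratio of Srebf2 to Insig1 was 0.72 higher on the log2 scale in Y67F-FXR (exact permutation p = 0.1, no overlap), while Srebf1 to Srebf2 differed by -0.19 (exact permutation p = 0.8) and by 0.11 with FXR-WT replicate 1 left out. The Mir33 row, within Srebf2, had 0 reads in every library and gives no value for the mature microRNA.

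Stard4, a carrier that moves cholesterol between membranes, was at 17.4, 23.6 and 32.4 CPM in FXR-WT and 23.6, 9.54 and 17.1 CPM in Y67F-FXR. Groups overlapped, and the log2 difference of -0.55 had an SE of 0.336 (edgeR Benjamini-Hochberg adjusted p = 0.561). It was -0.28 without Y67F-FXR replicate 2, -0.29 without FXR-WT replicate 3 and -0.88 without Y67F-FXR replicate 1. Its range over the 6 libraries was the widest of the members, with 175 to 751 reads a library.

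Mylip and Lrp1, the members that act on lipoprotein receptors and uptake, had overlapping groups. On mm9 Mylip lies at chr13:45485111-45507309 on the plus strand and Lrp1 at chr10:126975214-127058204 on the minus strand. Mylip was at 9.48, 11.97 and 8.33 CPM in FXR-WT and 13.1, 11.6 and 11.4 CPM in Y67F-FXR, a log2 difference of 0.28 (SE 0.170) that became 0.44 without FXR-WT replicate 2 and 0.17 without FXR-WT replicate 3. Lrp1 was at 528, 447 and 473 CPM in FXR-WT and 521, 608 and 589 CPM in Y67F-FXR, a log2 difference of 0.25 (SE 0.126). Their adjusted p were 0.559 and 0.464 (edgeR, Benjamini-Hochberg). At 14891 bases of exon, Lrp1 was the longest member, and the trend of level with gene length at that length ran from -0.14 to 0.12 in the FXR-WT livers and from -0.22 to 0.27 in the Y67F-FXR livers on the log2 scale. With the trend removed the Lrp1 difference was 0.26. The log2 ratio of Mylip to Lrp1 differed by 0.04 (exact permutation p = 0.7) and ran from -0.085 to 0.24 with 1 library left out, changing sign.

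**Figure D3:**
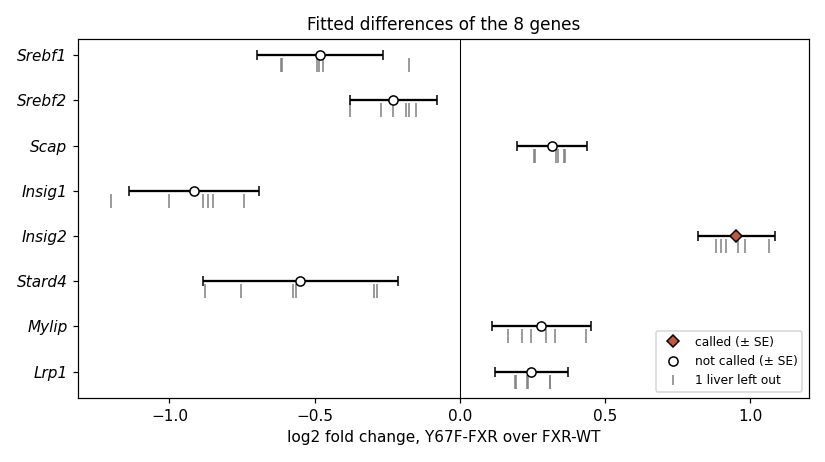
Fitted log2 fold change, Y67F-FXR over FXR-WT, of the 8 genes (points ± SE) with the values after leaving out each library in turn (grey ticks). Only Insig2 was called (filled), at 0.95, and Insig1 was at -0.92.

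Levels per kilobase ordered the members within each group. In FXR-WT, Insig1 was highest at 72.4 ± 6.98 CPM per kilobase, followed by Lrp1 at 32.4 ± 2.80, Insig2 at 25.6 ± 1.14, Srebf1 at 24.9 ± 8.34 and Scap at 24.3 ± 1.94 (SD, n = 3 each). Insig2, Srebf1 and Scap differed by less than their spread. Srebf2, Stard4 and Mylip were at 12.4, 8.21 and 3.33 CPM per kilobase. In Y67F-FXR, Insig2 had the highest mean at 49.5 ± 6.54 CPM per kilobase, and Lrp1 at 38.4 ± 3.06 and Insig1 at 38.3 ± 12.6 were not separated by their spread (SD, n = 3 each). Insig1 and Insig2 were not separated either, since in Y67F-FXR replicate 3 Insig1 was at 52.3 and Insig2 at 41.9 CPM per kilobase. Scap, Srebf1, Srebf2, Stard4 and Mylip followed at 30.3, 17.8, 10.6, 5.604 and 4.04 CPM per kilobase.

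The genes whose centred log2 pattern over the 6 libraries was nearest were sought for members that ranged by at least 1 on the log2 scale, which were Insig1, Insig2 and Stard4, among 8843 genes. Nearest to Insig1 were Mmab (root mean square distance 0.0979) and the cholesterol synthesis enzyme Cyp51 (0.125), nearest to Insig2 were Acaa1b (0.103) and Slc15a4 (0.111), and nearest to Stard4 were Akr1c14 (0.123) and Arhgap24 (0.137). Acaa1b, a peroxisomal thiolase, was at 1208 ± 24.9 CPM in FXR-WT and 2297 ± 117 CPM in Y67F-FXR (SD, n = 3 each). The matched pattern included the group difference, so a rise like that of Insig2 was given by the selection and is no finding.

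Genes listed around the members were counted, with no test of the list. Over all tested genes, 20.6% had groups that did not overlap, in either direction. At an unadjusted p under 0.05 (edgeR), 6.75% of all genes were higher and 6.67% lower. Of 22 genes of SREBP transport and turnover, 8 were higher and 14 lower by fitted value and 0 were called by the quasi-likelihood test. In each direction 2 had an unadjusted p under 0.05, and groups did not overlap for 2 higher and 3 lower. The median log2 difference was -0.04, against 0.01 over all genes. The COPII coat gene Sec23b was at 54.5 ± 12.4 CPM in FXR-WT and 28.2 ± 2.00 CPM in Y67F-FXR (SD, n = 3 each), a log2 difference of -0.95 (edgeR Benjamini-Hochberg adjusted p = 0.0548). Its paralogue Sec23a, named after its values were seen, was at 49.6 ± 8.68 and 74.6 ± 14.3 CPM (SD, n = 3 each), a log2 difference of 0.59 in the other direction (edgeR unadjusted p = 0.0129), with no overlap of the groups. Erlin1, of a sterol-regulated degradation complex, was at -0.67, and Lpin1, a phosphatidate phosphatase that also restrains SREBP activity, was at 1.14. Sec23b, Erlin1 and Lpin1 were called by DESeq2 and by the likelihood ratio test. Of 22 tested LDL receptor family and adaptor genes, 10 were higher and 12 lower by fitted value, and 0 were called by the quasi-likelihood test. Among the 22, 1 higher and 2 lower had an unadjusted p under 0.05, groups did not overlap for 2 higher and 3 lower, and the median was -0.01. Sort1, a sorting receptor, was at -0.62. DESeq2 and the likelihood ratio test each called 2 genes of this list lower, Sort1 among them. Of 19 tested sterol transport genes, 9 were higher and 10 lower by fitted value, 3 higher and 2 lower had an unadjusted p under 0.05, groups did not overlap for 4 higher and 2 lower, and the median was -0.03. The oxysterol-binding protein Osbp was at -0.48 and the cholesteryl ester hydrolase Nceh1 at 0.82. In this list 1 gene was called: Scarb1, the HDL receptor, fell from 282 ± 15.0 to 178 ± 8.89 CPM (SD, n = 3 each), a log2 difference of -0.66 (edgeR Benjamini-Hochberg adjusted p = 0.0429).

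Of 19 tested cholesterol synthesis genes that SREBP-2 induces, 3 were higher and 16 lower by fitted value. All 16 had an unadjusted p under 0.05 (edgeR), against 6.67% of all genes lower. Groups did not overlap for 15, all lower, against 20.6% of all genes in either direction. Of the 19, 1 was called lower by the quasi-likelihood test, 11 by DESeq2 and 10 by the likelihood ratio test. The median log2 difference was -0.99, against 0.01 over all genes. Fdft1, squalene synthase, was at 297 ± 12.9 CPM in FXR-WT and 151 ± 35.7 CPM in Y67F-FXR (SD, n = 3 each), a log2 difference of -0.98 (edgeR Benjamini-Hochberg adjusted p = 0.0546), and 27.0% of its length is shared with Ctsb. Mvk, mevalonate kinase, was at -1.001. Hmgcs1, also of this pathway, was listed at 0 reads in all libraries and could not be tested. Of 15 tested fatty acid synthesis genes of SREBP-1, 8 were higher and 7 lower by fitted value, and 0 were called by the quasi-likelihood test. Among the 15, 1 higher and 2 lower had an unadjusted p under 0.05, groups did not overlap for 1 higher and 3 lower, and the median was 0.03. Acacb, Mid1ip1 and Fasn were at 0.54, -0.71 and -0.43, and DESeq2 and the likelihood ratio test called 0 genes of this list.

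Of 14 LXR genes and targets, 1 was called higher and 2 lower, 1 higher and 4 lower had an unadjusted p under 0.05, and the median log2 difference was -0.15. Groups did not overlap for 2 higher and 4 lower, against 20.6% of all genes in either direction. DESeq2 and the likelihood ratio test each called 1 higher and 3 lower, adding Abcg1 (-0.89), named after its values were seen. The sterol exporter Abcg5 was at 196 ± 33.2 CPM in FXR-WT and 84.1 ± 4.33 CPM in Y67F-FXR, and its partner Abcg8 at 210 ± 32.4 and 90.2 ± 10.2 CPM (SD, n = 3 each). Their log2 differences were -1.22 each, with adjusted p of 0.0175 and 0.0176 (edgeR, Benjamini-Hochberg). Lpcat3, a phospholipid remodelling enzyme that shares 11.6% of its length with Emg1, rose by 0.68.

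**Figure D4:**
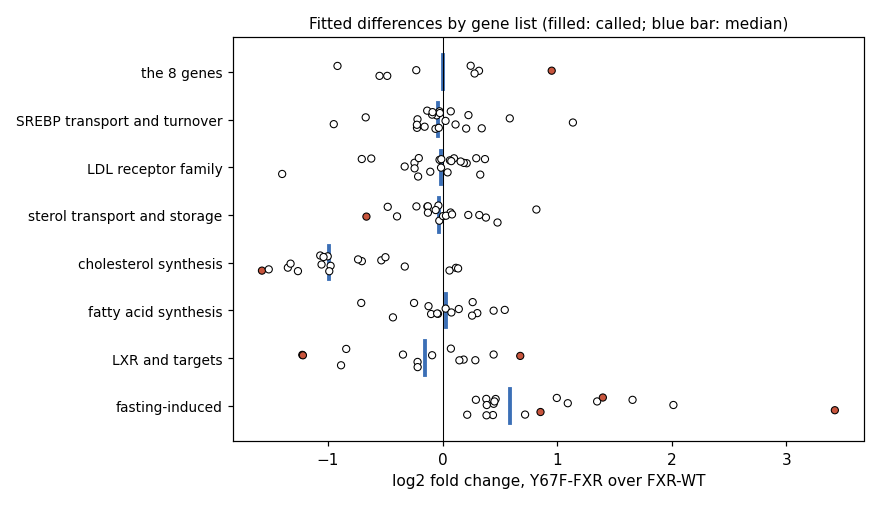
Fitted log2 fold change, Y67F-FXR over FXR-WT (x axis), of each tested gene by list, with called genes filled and the median of the list as a blue bar. Cholesterol synthesis genes had a median of -0.99 and fatty acid synthesis genes 0.03, and the 8 members spread from -0.92 to 0.95.

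Markers of other liver cells are given for the whole lists. Over all tested genes, 20.6% had groups that did not overlap, in either direction, and 6.67% were lower at an unadjusted p under 0.05 (edgeR). Kupffer cell and leukocyte markers summed to 154 to 223 CPM in FXR-WT and 122 to 273 CPM in Y67F-FXR, stellate cell markers to 219.8 to 239 and 161 to 219.5 CPM without overlap, endothelial markers to 230 to 260 and 240 to 251 CPM, and cholangiocyte markers to 46.1 to 71.1 and 54.1 to 60.6 CPM. Of 11 Kupffer cell and leukocyte markers, 0 were called by edgeR's quasi-likelihood test and 2, the neutrophil genes S100a8 and S100a9, were lower at an unadjusted p under 0.05 with no overlap (log2 differences -2.73 and -1.95, at 1.03 and 2.75 CPM in FXR-WT). The likelihood ratio test called both and DESeq2 called S100a9. Of 8 endothelial markers, 0 were called by the quasi-likelihood test, the likelihood ratio test or DESeq2 and 1, Lyve1, was lower at an unadjusted p under 0.05 with no overlap, at -0.89. These marker genes were named after their values were seen. Of 10 stellate markers, 9 were lower by fitted value, 0 were called by edgeR's quasi-likelihood test, 3 had an unadjusted p under 0.05, and groups did not overlap for 3 (Lrat, Col1a1 and Col3a1, all lower), with a median of -0.34, and DESeq2 and the likelihood ratio test each called 1, Lrat, which was lower. Of 5 erythrocyte markers, 4, all globin rows, were at 0 reads. The other, Alas2, was at 86.0 ± 5.09 CPM in FXR-WT and 96.1 ± 15.3 CPM in Y67F-FXR (SD, n = 3 each). Why the globin rows held 0 reads was not tested, and they give no measure of red-cell RNA. The part of these cells in the members' differences was not tested.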

How the data were processed

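Liver RNA was sequenced as paired 100 bp reads. The authors deposited read counts per gene for each library, not normalized, made with featureCounts 1.4.6-p4 on mm9 gene models per the file headers; reads of a pair were counted singly, strand was not used, and reads on several genes were left out. The submitters' processing notes also name bcl2fastq 2.17.1.14, Trimmomatic 0.36, FastQC 0.11.5 and STAR 2.5.3a. A deposited table of the authors' own comparison (fold changes and p-values) was not used.

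Counts were filtered with filterByExpr, scaled by TMM and tested with edgeR 4.0.16 in R 4.3.3 (quasi-likelihood, Benjamini-Hochberg over 12453 genes). DESeq2 1.42.0 was an alternative. CPM used TMM-scaled totals, and CPM per kilobase divided by exon length. The log2 ratios within libraries used a prior count of 2 and were corrected for exon length. Figures were drawn with matplotlib 3.10.9. The code was tested on simulated data.

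The members and gene lists were chosen with earlier results of these data known. The rule for named genes gave the 8 members, the 3 genes of smallest p in each of 6 lists, the 2 nearest patterns (mean of at least 5 CPM) and Nr1h4. Other genes, named outside the rule after their values were seen, were Sec23a, Abcg1, Hmgcs1, the cell markers S100a8, S100a9, Lyve1, Lrat, Col1a1, Col3a1 and Alas2, and the fasting genes G6pc, Acot1 and Plin2. A few genes this rule gives are not reported here.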

Additional observations from a re-analysis of the deposited data

How the results depend on the processing

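Every member kept its direction in each of its refits, 120 values over the 8 members. Insig1 was called by DESeq2 (-0.91) and edgeR's likelihood ratio test (-0.92) and by no other setting. Insig2 kept its call under DESeq2, the likelihood ratio test, both other scalings, both other filters and the gene length offset, and lost it when any library was left out (0.88 to 1.07). Replicate numbers did not pair the livers, since deviations of same-numbered livers correlated at -0.52, -0.08 and 0.12. Differently numbered livers did correlate across groups. FXR-WT replicate 3 was at 0.58 with Y67F-FXR replicate 1 and at -0.59 with Y67F-FXR replicate 2. FXR-WT replicate 1 was at 0.54 with Y67F-FXR replicate 2. The source of this shared variation was not tested. With a replicate block, 6 genes were called lower and 2 higher, and Insig2 was at 0.95 (adjusted p = 0.149 by edgeR); with the block and length offset it was at 0.96 (adjusted p = 0.05004 by edgeR). Genes called lower and higher were 216 and 215 by DESeq2, 226 and 221 by the likelihood ratio test, 124 and 123 with the length offset, 81 and 86 with no filter, 45 and 48 with the block and length offset, and 7 to 33 and 2 to 35 with 1 library left out. The log2 ratio of Srebf1 to Srebf2 ranged from -0.36 to 0.11 and that of Mylip to Lrp1 from -0.085 to 0.24 with 1 library left out, both changing sign. Library totals moved the median of SREBP transport genes from -0.04 to -0.11 and that of all genes from 0.01 to -0.06. The fatty acid synthesis median changed sign, from 0.03 to -0.04. The LDL receptor family and sterol transport medians moved from -0.01 to -0.07 and from -0.03 to -0.09. Members with groups apart went from 4 to 5, and the share of all genes with groups apart was not counted under library totals. The causes of these shifts were not tested. The lowest read counts among the members were 193 for Mylip and 175 for Stard4, and what part depth had in their errors was not tested.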

Other observations

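Genes induced in the fasted liver were also counted, and Tat is in both this list and the hepatocyte markers. All 18 were higher in Y67F-FXR by fitted value, and the median log2 difference was 0.59, against 0.01 over all genes. At an unadjusted p under 0.05 (edgeR) 12 were higher, against 6.75% of all genes. Groups did not overlap for 11, against 20.6% of all genes in either direction. Called were 3, named here after their values were seen: the glucose-releasing phosphatase G6pc (32.4 ± 19.6 CPM in FXR-WT and 348 ± 106 CPM in Y67F-FXR), the acyl-CoA thioesterase Acot1 (58.8 ± 7.27 and 155 ± 19.8 CPM) and the lipid droplet protein Plin2 (492 ± 19.5 and 889 ± 120 CPM; SD, n = 3 each). Their log2 differences were 3.42, 1.399 and 0.85. DESeq2 and edgeR's likelihood ratio test each called 7 of the 18. Whether these genes moved with Insig2 for a shared reason was not tested.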
